A study of Homo sapiens with 12 samples.

Results

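The genes EXOSC1 to EXOSC9 encode the barrel-shaped body of the human RNA exosome, and EXOSC10 encodes an associated nuclease. These 10 genes are together called the core here, and their mRNA levels were taken by gene identifier from a table of 22379 genes. All 10 were present and all passed the filter on low values, an untreated mean of at least 10 that 13811 genes met. They were followed in 12 libraries of poly(A)-selected RNA of the osteosarcoma line U2OS, which formed 6 groups of 2 replicates.

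Each culture had been transiently transfected with the pX330-puro plasmid, which supplies Cas9 and one guide RNA, and selected with puromycin. The guide was nontargeting in the group called NONT, directed at NUP93, a nuclear pore protein, in NUP93-KO, or directed at EXOSC5 itself in EXOSC5-KO. Cells of each genotype received DMSO, called untreated here, or 1 µM triptolide for 8 h. Triptolide binds the XPB subunit of TFIIH and blocks initiation by RNA polymerase II. The knockouts were pools and not clones, so each library may mix edited and unedited cells, and per the study's methods selection and regrowth were shorter for the NUP93 and EXOSC5 guides than for NONT. Nothing in the labels states that replicates came from separate cultures, so p-values measure the spread between these libraries, which may be technical.

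The RNA exosome degrades and trims RNA from its 3′ end in the nucleus and in the cytoplasm. Its body is a barrel: EXOSC4 to EXOSC9, proteins that resemble the bacterial exonuclease RNase PH, form a ring of heterodimers, and EXOSC1, EXOSC2 and EXOSC3, which carry RNA-binding S1 or KH folds, cap that ring. In human cells the barrel has no catalytic activity of its own and threads RNA to associated nucleases, among them EXOSC10, a distributive nuclear exonuclease, and DIS3, a processive one. EXOSC5 pairs with EXOSC8 in the ring, EXOSC4 with EXOSC9, and EXOSC6 with EXOSC7.

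The EXOSC5 guide is shown because it sets where the targeted gene could be altered. Its 20-nt spacer had 1 exact match in the primary GRCh38 sequence, at chr19:41397170-41397189 on the plus strand. EXOSC5 (ENSG00000077348) lies on the minus strand of the same chromosome, chr19:41386371-41397362, with 6 exons in its canonical transcript. In the first line the capitals mark the PAM, the motif that Cas9 needs beside its target, and in the second line, which is read along the gene, they mark the end of exon 1.
EXOSC5 guide target with PAM, chr19:41397170-41397192, plus strand: gaagttcttaccttgcaggaAGG
EXOSC5 exon 1 splice donor, chr19:41397166-41397195, minus strand: CTTCCTTCCTGCAAGgtaagaacttcaccc
The spacer covers 9 nt of exon 1 and 11 nt of intron 1, so it spans the splice donor. The expected cut lies 6 exonic nt before the donor, after 142 of the 705 coding nt of the canonical transcript (20.1%). That donor is used by 5 of the 6 annotated EXOSC5 transcripts. Edited alleles were not read in these data, and an edit need not lower the mRNA.

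Values were on a spike-in scale: ERCC RNAs had been added per counted cell, so a value follows mRNA per cell, and an error in a cell count or spike-in volume moves all genes of a library together. Depth was about 8.60 M to 11.96 M reads a library, and a member's value rested on about 60.2 to 1050 reads. The untreated NONT replicates stood apart from each other: replicate 1 was lower than replicate 2 by a median of −0.51 on the log2 scale over all tested genes, and for all 10 members, by −0.68 to −0.26. For that reason differences were also computed with all libraries rescaled to the same gene total, and those values describe shares of the mRNA pool, not levels per cell. In untreated libraries, of bone and mesenchymal markers RUNX2 read 218 to 404 and COL1A1, SPARC and VIM at least 13192, whereas COL1A2, the partner chain of COL1A1, read 10.2 to 42.0. The epithelial markers CDH1 and EPCAM read 32.2 to 69.7 and 16.8 to 47.6, and PTPRC, a leukocyte marker, and PECAM1, an endothelial one, were at most 4.57 and 9.99. NUP93 read 1395 and 1432 in untreated NUP93-KO against 1753 and 2489 in NONT. After triptolide it read 801 and 1019 against 1007 and 899, so on the spike-in scale these genotypes were separated only without drug. The gene totals of the treated libraries differed, at 8.22 and 8.79 M in NUP93-KO and 5.94 and 4.90 M in NONT. Relative to these totals, NUP93 was lower in both treated NUP93-KO libraries than in both treated NONT libraries.

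The targeted subunit was the member that stood out. EXOSC5 mRNA was lower in EXOSC5-KO than in every library of the other genotypes at the same treatment, with means at 28.9 to 48.4% of theirs. Without drug it read 216 and 148 in EXOSC5-KO, 299 and 481 in NONT, and 376 in both NUP93-KO replicates. After triptolide it read 75.2 and 102 in EXOSC5-KO, 266 and 208 in NONT, and 289 and 323 in NUP93-KO. EXOSC5-KO and the other genotypes did not overlap at either treatment, although the higher untreated EXOSC5-KO library exceeded the lower triptolide-treated NONT library. About 80.3 to 149 reads lay behind the EXOSC5 values in EXOSC5-KO.

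**Figure D1:**
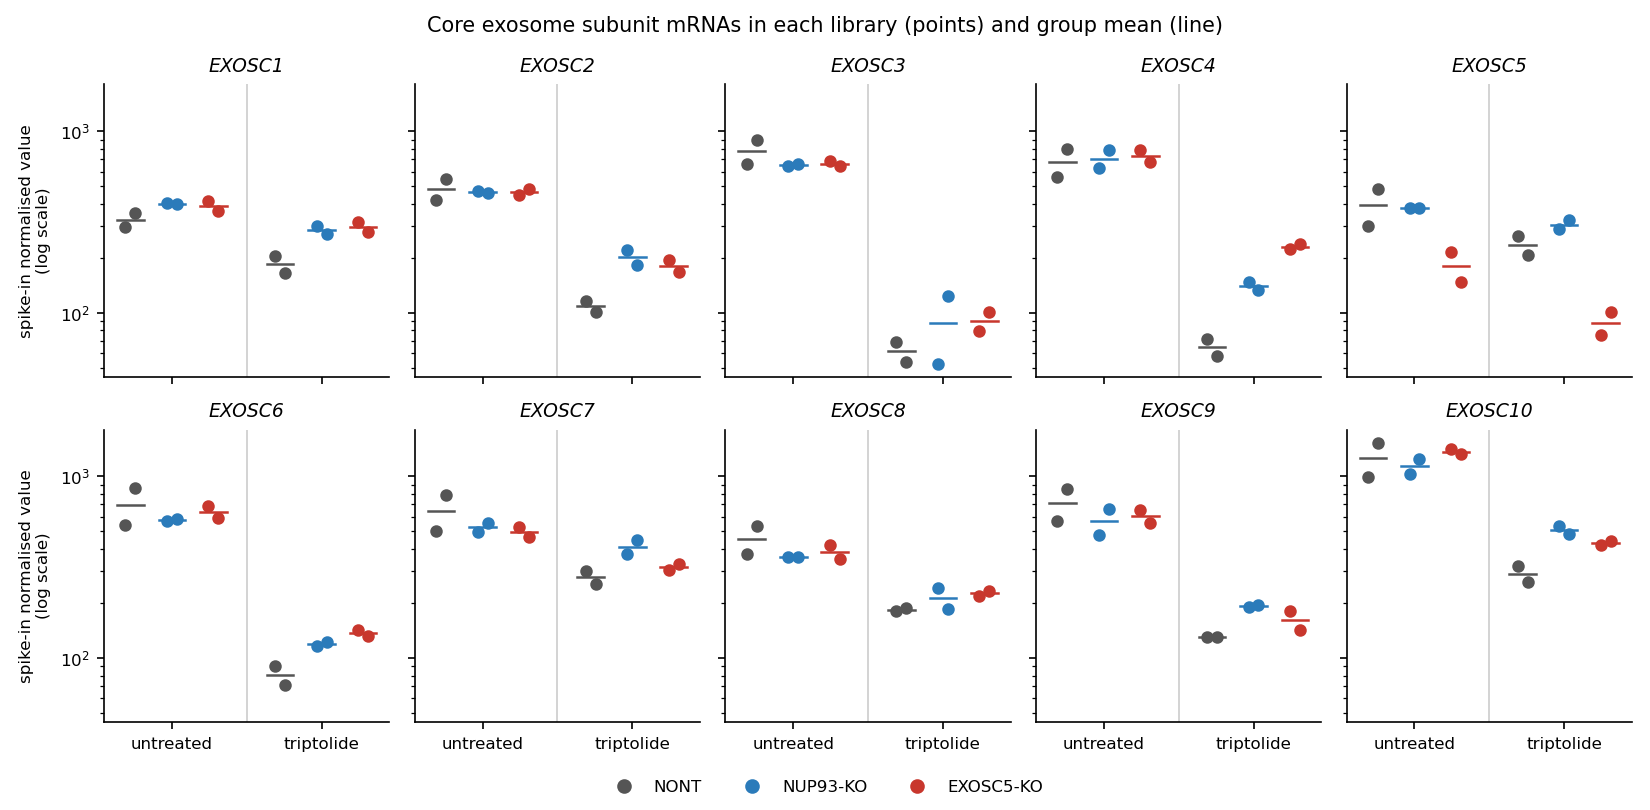
Spike-in normalised value of each core subunit mRNA (log axis) in the 12 libraries, grouped by treatment and coloured by genotype; points are libraries and lines are means of 2. EXOSC5 is lowest in EXOSC5-KO at both treatments, and EXOSC4 after triptolide is ordered EXOSC5-KO (224 and 238), NUP93-KO (148 and 134), NONT (72.0 and 58.2).

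Over both treatments, EXOSC5 was lower in EXOSC5-KO than in the other genotypes by −1.34 ± 0.18 (SE) on the log2 scale (limma adjusted p = 0.000213), where 0.333% of all tested genes were called lower. An exact two-sided permutation of genotype labels within treatment gave p = 0.00444, the smallest that the 225 arrangements allow. Without drug the mean was 46.6% of that in NONT (single pairings 30.7 to 72.1%) and 48.4% of that in NUP93-KO (39.3 to 57.5%). These untreated differences, −1.08 ± 0.29 (SE) and −1.07 ± 0.29 (SE), did not pass the limma threshold on the spike-in scale (adjusted p = 0.151 and 0.215), where 0.521% and 0.290% of all tested genes did. With the same gene total both passed, at −1.11 (limma adjusted p = 0.00806; 2.09% of tested genes called lower) and −1.21 (limma adjusted p = 0.00811; 1.54%). After triptolide the mean was 37.3% of that in NONT (log2 difference −1.42 ± 0.29 SE, limma adjusted p = 0.00302; 0.195% of tested genes called lower) and 28.9% of that in NUP93-KO (−1.79 ± 0.29 SE, limma adjusted p = 0.00565; 0.203%). EXOSC5 ranked low among all genes: in the comparison over both treatments, 0.369% of tested genes had a more negative difference.

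The question for the other 9 subunits was whether their mRNAs were higher where EXOSC5 was targeted and its mRNA was lower, though not absent. Without drug, none of them was detectably higher. Against NONT, 0 of 9 passed the limma threshold in either direction, and 0 had an unadjusted p under 0.05; the median difference was −0.09, beside 0.07 for all tested genes. Against NUP93-KO the counts were again 0 of 9, adjusted and unadjusted, with a median of 0.06 beside 0.15 for all tested genes. The highest upper bound of a 95% interval was 0.73 for EXOSC1 against NONT and 0.74 for EXOSC10 against NUP93-KO, or 1.66-fold in each case. None of the intervals of the 9 subunits reached 1 on the log2 scale in either comparison, each taken by itself, and with the same gene total the highest bounds were 0.55 and 0.53. Increases up to these bounds lie within the intervals that 2 libraries a group give. On the other scalings, 1 of 9 passed against NONT, EXOSC7, and it was lower in EXOSC5-KO (−0.44 by median of ratios and −0.73 with the same mitochondrial sum, limma adjusted p = 0.0332 and 0.0339). The median tested gene stood at −0.02 and −0.30 on these scalings, so part of the second value was shared by all genes.

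Among the cap subunits, EXOSC1 read 413 and 363 in untreated EXOSC5-KO, 296 and 355 in NONT, and 401 and 397 in NUP93-KO. EXOSC5-KO thus lay above NONT and around NUP93-KO, with differences of 0.26 ± 0.22 (SE) and −0.04 ± 0.22 (SE). EXOSC2 read 444 and 479.7 in EXOSC5-KO, within the 418 to 546 of NONT. EXOSC3, whose gene is mutated in pontocerebellar hypoplasia, read 687 and 642, below the higher NONT library at 893 and beside the lower at 657.

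In the ring, EXOSC8, the heterodimer partner of EXOSC5, read 418 and 352 in untreated EXOSC5-KO, 375 and 533 in NONT, and 362 in both NUP93-KO replicates. The groups overlapped, and over both treatments the EXOSC8 difference was 0.06 ± 0.15 (SE), with a 95% interval from −0.25 to 0.38 (−0.10 with the same gene total). EXOSC7 read 523 and 466 in EXOSC5-KO, 503 and 787 in NONT, and 494 and 554 in NUP93-KO. It had the most negative untreated difference from NONT of the 9, −0.35 ± 0.23 (SE), and over both treatments its difference was −0.15 ± 0.14 (SE) on the spike-in scale (limma adjusted p = 0.513). With the same gene total the EXOSC7 difference over both treatments was −0.32 ± 0.06 (SE) and passed (limma adjusted p = 0.0068), where 6.31% of tested genes were called lower. It passed on the remaining scalings too, at −0.38 by median of ratios and −0.63 with the same mitochondrial sum (limma adjusted p = 0.00255 and 0.0017). The median tested gene stood at −0.015 and −0.25 there. EXOSC6 read 688 and 592 and EXOSC4 786 and 679.7 in untreated EXOSC5-KO, within the range of the NONT libraries (539 to 857 and 557 to 799). EXOSC9 read 651 and 552, the second value below the lower NONT library (567 and 853 in NONT). The nuclear exonuclease EXOSC10 read 1413 and 1320.4, between the NONT libraries at 997 and 1529 and above NUP93-KO at 1025 and 1253, with differences of 0.15 ± 0.22 (SE) and 0.27 ± 0.22 (SE).

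**Figure D2:**
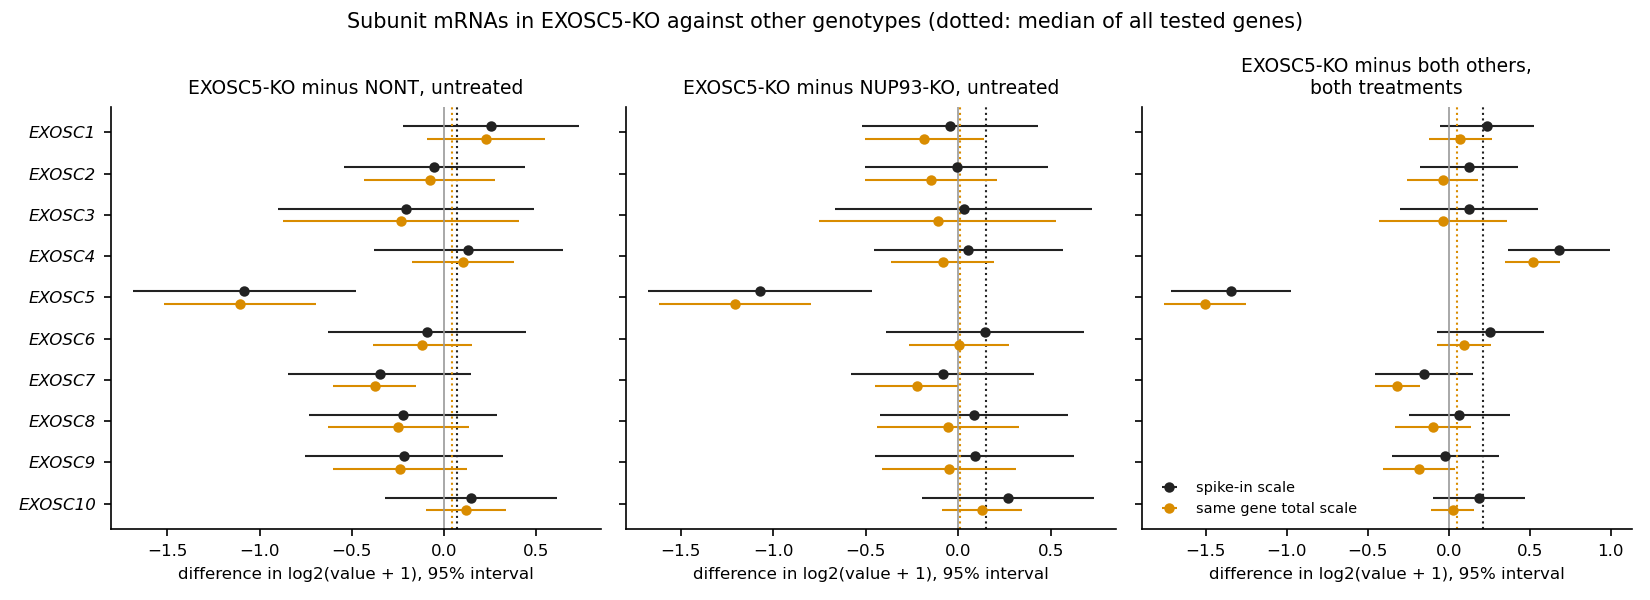
Difference in log2(value + 1) between EXOSC5-KO and NONT (left, untreated), NUP93-KO (middle, untreated) and both together over both treatments (right) for the 10 subunits, with 95% intervals, on the spike-in scale and with the same gene total; dotted lines are the medians of all tested genes. EXOSC5 lies below the others in each panel (−1.08, −1.07 and −1.34 on the spike-in scale), and EXOSC4 is the member farthest above 0 at the right (0.68).

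On the spike-in scale EXOSC4 was the only 1 of the other 9 subunits called over both treatments. Its difference exceeded that of 88.4% of tested genes, so larger increases were not rare in that comparison. The mRNA of this ring protein was higher in EXOSC5-KO by 0.68 ± 0.15 (SE) on the log2 spike-in scale (limma adjusted p = 0.00946), in a comparison where 9.49% of tested genes were called higher. Without the first untreated EXOSC5-KO library the difference was 0.63 and no longer passed (limma adjusted p = 0.0792), and with the same gene total it was 0.52 ± 0.08 (SE, limma adjusted p = 0.0015; 10.8% of tested genes called higher). With the same mitochondrial sum it was 0.21 ± 0.12 (SE) and did not pass (limma adjusted p = 0.212), a scaling that moved the median gene from 0.21 to −0.25. Untreated EXOSC4 overlapped between the genotypes, with differences of 0.13 ± 0.24 (SE) from NONT and 0.06 ± 0.24 (SE) from NUP93-KO (0.11 and −0.08 with the same gene total). After triptolide it read 224 and 238 in EXOSC5-KO, 148 and 134 in NUP93-KO, and 72.0 and 58.2 in NONT, so that no genotype overlapped another. The median tested gene was also higher than in treated NONT, by 0.65 in EXOSC5-KO and 0.66 in NUP93-KO. No rate of such separation over other genes was computed.

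In the treated libraries, the EXOSC4 difference between EXOSC5-KO and NONT was 1.82 ± 0.24 (SE, limma adjusted p = 0.000247). Against NUP93-KO it was 0.71 ± 0.24 (SE, limma adjusted p = 0.238), and 0.80 ± 0.12 (SE, limma adjusted p = 0.00633) with the same gene total, where 4.74% of tested genes were called higher. Among the 9 subunits it was the only one with an unadjusted p under 0.05 against treated NUP93-KO on the spike-in scale, where 0 of 9 passed the threshold and 0.594% of tested genes were called higher. A gene model of the same strand, ENSG00000290230, covers EXOSC4 in the annotation, and another, ENSG00000255872, covers EXOSC3. CLEC3B, also of the same strand, overlaps the EXOSC7 locus by 34519 nt. No value was used for any of them, and reads shared with them could be divided.

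Against treated NONT, 5 of the 9 subunits were higher in EXOSC5-KO, beside 39.2% of all tested genes called higher. They were EXOSC1 (0.68 ± 0.22 SE), EXOSC2 (0.73 ± 0.23 SE), EXOSC4, EXOSC6 (0.77 ± 0.25 SE) and EXOSC10 (0.57 ± 0.22 SE). The EXOSC10 call was at the threshold (limma adjusted p = 0.049) and held in 5 of 22 alternatives. Only EXOSC4 exceeded the median of all tested genes, 0.65, by more than 1 on the log2 scale. With the same gene total, 1 of 9 was higher, EXOSC4 (1.26; 8.91% of tested genes called higher), and 1 was lower, EXOSC7 (−0.38; 4.24% called lower). The count on the spike-in scale fell to 1 when the second treated NONT library or either treated EXOSC5-KO library was left out. Treated NUP93-KO against the same NONT libraries gave 4 of 10 members higher (background 41.9%): EXOSC1 (0.63), EXOSC2 (0.89), EXOSC4 (1.11) and EXOSC10 (0.80). With the same gene total none of those 4 passed, and EXOSC1 turned to −0.03. On the spike-in scale the count was 0 without the second treated NONT library, 2 without either treated NUP93-KO library and 7 without either untreated NONT library, and the EXOSC1 call held in 8 of 22 alternatives. Both comparisons use the same NONT libraries, so they are not independent. Without drug, 0 of 10 members differed between NUP93-KO and NONT by limma, 0 had an unadjusted p under 0.05, and 0.0217% of all tested genes passed.

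Triptolide lowered the core subunit mRNAs to very different degrees. In NONT, all 10 fell, beside 90.0% of all tested genes called lower, and their median log2 change was −2.11 beside −1.62 over all tested genes. EXOSC3 fell most, from 657 and 893 to 69.0 and 53.7, which left 7.92% of the untreated mean. EXOSC4 fell from 557 and 799 to 72.0 and 58.2, leaving 9.61%, and EXOSC6 from 539 and 857 to 89.8 and 71.0, leaving 11.5%. The log2 changes of these 3 were −3.63 ± 0.33 (SE), −3.34 ± 0.24 (SE) and −3.07 ± 0.25 (SE), and their treated and untreated libraries lay far apart. EXOSC9 (18.4% left), EXOSC2 (22.6%) and EXOSC10 (23.0%) formed the middle.

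The most persistent members in NONT were EXOSC8 (40.5% left), EXOSC7 (43.2%), EXOSC1 (57.0%) and EXOSC5 itself (60.7%), all above the 32.5% of the median gene. EXOSC1 went from 296 and 355 to 206 and 165, and EXOSC5 from 299 and 481 to 266 and 208, without overlap of treated and untreated libraries in either gene. The EXOSC5 change was −0.69 ± 0.29 (SE, limma adjusted p = 0.0316), and without the second untreated NONT library it was −0.35 and without the second treated one −0.51, neither of which passed (limma adjusted p = 0.276 and 0.179). On the scale of the same gene total, EXOSC1 and EXOSC5 rose in NONT, by 0.52 and 0.65 (limma adjusted p = 0.0105 and 0.0132), where 15.2% of tested genes were called higher, while EXOSC7 and EXOSC8 read 0.16 and 0.06 (limma adjusted p = 0.216 and 0.803). A fall in level per cell thus stood beside a higher share of the remaining mRNA for EXOSC1 and EXOSC5.

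**Figure D3:**
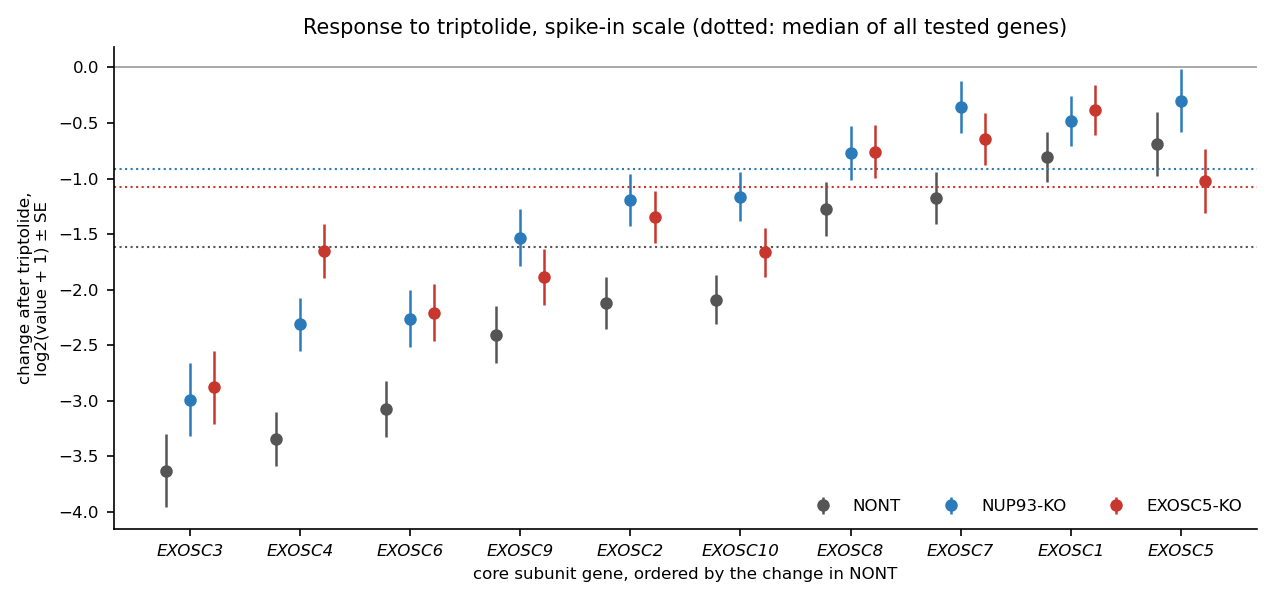
Change in log2(value + 1) after triptolide, with its standard error, for each subunit in the 3 genotypes on the spike-in scale; dotted lines are the medians of all tested genes. Changes in NONT run from −3.63 (EXOSC3) to −0.69 (EXOSC5), and EXOSC4 is the member whose EXOSC5-KO value (−1.66) lies farthest from NONT (−3.34).

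In the knockouts the fitted losses on the spike-in scale were smaller than in NONT for every member, except EXOSC5 in EXOSC5-KO, and also for the median gene. In NUP93-KO, 7 of 10 members were called lower (background 55.1%; median −1.18 beside −0.92 over all tested genes), and in EXOSC5-KO 9 of 10 (background 64.3%; median −1.50 beside −1.08). EXOSC3 again lost most, with 13.6% left in NUP93-KO and 13.5% in EXOSC5-KO. EXOSC3 had the widest spread of any member between replicates here, 52.6 and 124 in treated NUP93-KO. The members not called were EXOSC1, EXOSC5 and EXOSC7 in NUP93-KO (changes of −0.48, −0.30 and −0.36) and EXOSC1 in EXOSC5-KO (−0.39). With the same gene total these 4 changes turned positive, to 0.087, 0.27 and 0.21 in NUP93-KO and 0.40 in EXOSC5-KO, where EXOSC1 was called higher (limma adjusted p = 0.0369), beside 14.7% of tested genes. On that scale EXOSC8 no longer passed in NUP93-KO (−0.20), nor did EXOSC5 (−0.24), EXOSC7 (0.15) and EXOSC8 (0.03) in EXOSC5-KO. On the spike-in scale the EXOSC5-KO count was 6 to 9 when 1 library was left out: the EXOSC7 call (−0.64) was lost without any one of the 4 EXOSC5-KO libraries (limma adjusted p = 0.0518 to 0.137), and the EXOSC8 call (−0.76) without the first library of either treatment (limma adjusted p = 0.104 and 0.0691). In EXOSC5-KO, EXOSC5 fell from 216 and 148 to 75.2 and 102, a change of −1.02 ± 0.29 (SE, limma adjusted p = 0.00513) that left 48.6%. Without the first untreated or the first treated EXOSC5-KO library it was −0.75 or −0.81 and did not pass (limma adjusted p = 0.0833 and 0.063).

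The difference in response between a knockout and NONT was tested directly. For EXOSC5-KO, 1 of 10 members passed, EXOSC4, beside 0.319% of all tested genes with a higher response. The median difference was 0.53 for the 10 members and 0.57 for all tested genes. EXOSC4 kept 31.6% of its untreated mean in EXOSC5-KO (from 28.6 to 35.0% over single pairings). In NUP93-KO it kept 19.9% (17.1 to 23.4%), and in NONT it kept 9.61% (7.29 to 12.9%). Its response differed from NONT by 1.69 ± 0.34 (SE, limma adjusted p = 0.048), close to the threshold. It did not pass with the same gene total, at 1.15 (limma adjusted p = 0.0639), nor when the second NONT library of either treatment, either untreated NUP93-KO library or any of the EXOSC5-KO libraries was left out, which gave 1.43 to 1.79. The EXOSC5 mRNA itself lost more in EXOSC5-KO than in NONT by −0.33 ± 0.40 (SE), with a 95% interval from −1.19 to 0.52 that includes 0. For NUP93-KO, 0 of 10 passed by limma, beside 0.760% of all tested genes called with a higher response at the adjusted threshold. At an unadjusted p under 0.05 there were 6, all with a smaller loss than in NONT. The median difference was 0.82 for the 10 members and 0.74 for all tested genes, so the smaller loss was not particular to the members. For NUP93-KO the count was 7 without the first untreated NONT library and 2 without the first treated one.

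Levels of different subunits were compared per kb of canonical transcript. Over the 6 untreated libraries EXOSC4 was highest at 838 ± 118 (SD, n = 6) per kb, followed by EXOSC7 at 532 ± 113, EXOSC10 at 449 ± 75.7, EXOSC9 at 395 ± 82.1 and EXOSC3 at 384 ± 54.0. The lower part of the order was EXOSC8 at 343 ± 59.3, EXOSC1 at 324 ± 37.7, EXOSC5 at 317 ± 121, EXOSC2 at 233 ± 21.6 and EXOSC6 at 124 ± 23.0 (SD, n = 6). Within a library, EXOSC4 exceeded EXOSC7, EXOSC3 exceeded EXOSC8 and EXOSC2 exceeded EXOSC6 in 6 of 6. EXOSC9 against EXOSC3 and EXOSC8 against EXOSC1 kept that order in 3 and 2 of 6, so these neighbours were not separated. EXOSC5 and EXOSC1 changed places with genotype: EXOSC5 was above EXOSC1 in 4 of 4 libraries of NONT and NUP93-KO (300.0 to 482 against 258 to 350.5 per kb) and in 0 of 2 of EXOSC5-KO (148 to 216 against 317 to 361), so the rank of EXOSC5 over all 6 depends on the knockout. EXOSC6 has a single exon and an annotated transcript of 5163 nt, the longest of the 10, which lowers its value per kb.

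Shares of the summed core per kb do not depend on the spike-in. EXOSC5 made up 4.78% ± 0.86 (SD, n = 2) of the untreated core in EXOSC5-KO and 9.54% ± 0.68 (SD, n = 4) in the other genotypes. After triptolide it made up 5.73% ± 1.15 (SD, n = 2) and 18.5% ± 1.82 (SD, n = 4), without overlap at either treatment. In the other genotypes its share was 8.79 to 10.4% in untreated and 16.3 to 20.7% in treated libraries. EXOSC4 made up 23.0% ± 0.33 (SD, n = 2) of the untreated core in EXOSC5-KO and 20.5% ± 1.73 (SD, n = 4) elsewhere, overlapping. After triptolide it made up 17.4 and 18.2% in EXOSC5-KO, 9.91 and 8.92% in NUP93-KO, and 6.65 and 6.30% in NONT. EXOSC7 had a lower share in EXOSC5-KO than in the other genotypes, 12.5% against 13.9% untreated and 19.7% against 22.3% treated, without overlap. Higher shares without overlap were found for EXOSC10 untreated (12.9% against 10.6%) and for EXOSC1 (16.8% against 13.8%) and EXOSC6 (1.73% against 1.30%) after triptolide. EXOSC2, EXOSC3, EXOSC8 and EXOSC9 overlapped at both treatments. With 2 libraries set against 4, groups can separate without any difference between genotypes, and no rate over other genes was computed for these shares. Shares of a library are not independent of each other, since a lower share of 1 member leaves a higher summed share for the rest.

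**Figure D4:**
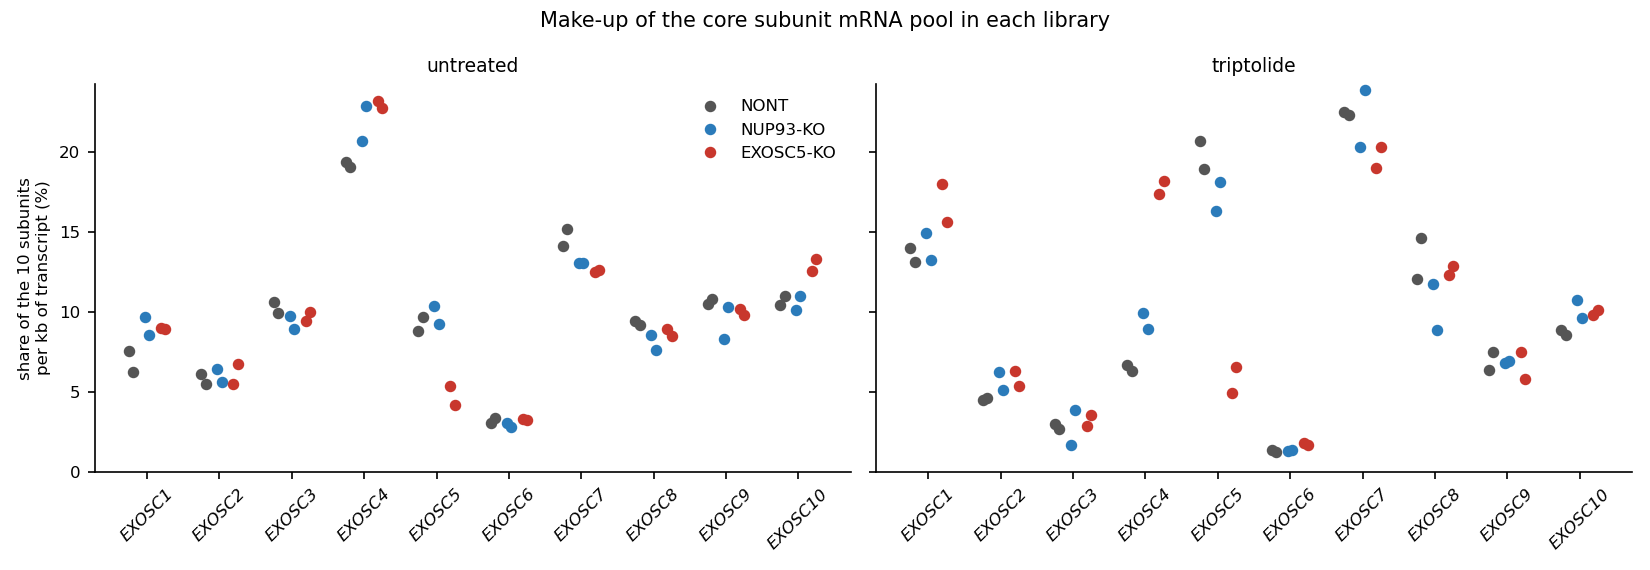
Share of each subunit in the summed core per kb of transcript (percent, axis from 0), untreated and after triptolide, with 1 point per library. EXOSC5 in EXOSC5-KO lies at 4.17 to 6.54% against 8.79 to 20.7% in the other genotypes, and EXOSC4 after triptolide at 17.4 and 18.2% against 6.30 to 9.91%.

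Over the 12 libraries, centred on the median gene of each, some members were most like one with a similar triptolide response, and others were not. EXOSC3 and EXOSC6, which were both lost strongly, were most like each other (Pearson r = 0.933), and so were EXOSC7 and EXOSC8 (r = 0.898). EXOSC5 was most like EXOSC7 among the members (r = 0.809). By contrast, EXOSC2 (22.6% left in NONT) was most like EXOSC1 (57.0% left), at r = 0.541. EXOSC10 (23.0% left) was most like EXOSC5 (60.7% left), at r = 0.457. Among all tested genes those closest to EXOSC5 were SDHA (r = 0.960), a subunit of succinate dehydrogenase, ORC6 (r = 0.958), a subunit of the origin recognition complex, and SAPCD2 (r = 0.954). The EXOSC5-KO libraries are part of each of these values: untreated SAPCD2 read 320.4 and 273 in EXOSC5-KO and 495 to 731 in the other genotypes. All of these points share libraries and the drug contrast, and the correlations are descriptions over 12 libraries.

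Genes that act with the exosome were examined as a list of 20, among them the nuclease DIS3, adaptors and helicases such as MTREX of the nuclear complexes and SKIC2 of the cytoplasmic Ski complex. On the spike-in scale 3 of 20 were higher and 0 lower in EXOSC5-KO against both other genotypes, beside 9.49% of all tested genes called higher. With the same mitochondrial sum 0 were higher and 5 lower. On that scaling the median difference was −0.25 for the 20 and also for all tested genes, so lower values were not particular to the list. SRRT (ARS2), which links the cap-binding complex to RNA decay, read 3842 and 3490.2 in untreated EXOSC5-KO against 1911 to 2878 in the other genotypes, and 2082 and 2021 against 685 to 1471 after triptolide. Its difference was 0.78 ± 0.14 (SE, limma adjusted p = 0.0031). With the same mitochondrial sum it was 0.30 and did not pass (limma adjusted p = 0.0605). For SRRT, EXOSC5-KO did not overlap the other genotypes at either treatment. No rate of such separation over all tested genes was computed, here or for the next gene. ZCCHC7, an RNA-binding subunit of the TRAMP complex, differed by 0.81 ± 0.17 (SE, limma adjusted p = 0.00853), and ZFC3H1, the scaffold of the PAXT connection, by 0.98 ± 0.26 (SE, limma adjusted p = 0.0275). ZCCHC7 did not overlap either, at 545 and 423 against 283 to 389 untreated and 92.3 and 89.0 against 32.6 to 51.0 treated, whereas ZFC3H1 did in both treatments. The ZFC3H1 call was lost in 9 of 21 alternatives, among them median of ratios (0.76, limma adjusted p = 0.0619), no filter on low values, no trend, and leaving out the second treated EXOSC5-KO library (0.72, limma adjusted p = 0.148). The summed mitochondrially encoded mRNAs behind that other scaling read 103512 and 93612 in untreated EXOSC5-KO and 58058 to 98963 in the other untreated libraries. Without the first untreated EXOSC5-KO library only 1 of the 20 passed, and without the second untreated NONT library 7 did. DIS3, which supplies the other catalytic activity of the nuclear complex, was not called (0.25 ± 0.14 SE, limma adjusted p = 0.251). After triptolide in NONT all 20 fell, from −6.47 for RBM7, the RNA-binding subunit of the NEXT complex, to −0.81 for SKIC3 of the Ski complex. That count stood beside 90.0% of all tested genes called lower, and the median change was −1.76 for the 20 and −1.62 for all tested genes. With the same gene total 9 of the 20 were called lower and 2 higher.

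The genes beside EXOSC5 were examined because the guide matches 1 site in a crowded region. Of the 8 tested genes that start within 200 kb, 0 were called in EXOSC5-KO against both other genotypes on the spike-in scale. Of all tested genes, 9.49% were called higher and 0.333% lower there. CCDC97 came closest to the threshold, at 0.49 ± 0.15 (SE, limma adjusted p = 0.0536). BCKDHA, a subunit of branched-chain ketoacid dehydrogenase that starts 0.446 kb from EXOSC5 on the opposite strand, read 599.8 and 475 in untreated EXOSC5-KO, 404 and 593 in NONT, and 494 and 563 in NUP93-KO. These groups overlapped, and the BCKDHA difference was 0.21 ± 0.14 (SE, limma adjusted p = 0.344). B9D2, the nearest on the other side at −33.2 kb, differed by 0.45 ± 0.32 (SE, limma adjusted p = 0.376). With the same gene total, CCDC97 was higher (0.33, limma adjusted p = 0.0219), and AXL (−0.35, limma adjusted p = 0.000203) and HNRNPUL1 (−0.11, limma adjusted p = 0.0347) were lower, each by far less than EXOSC5 (−1.50).

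**Figure D5:**
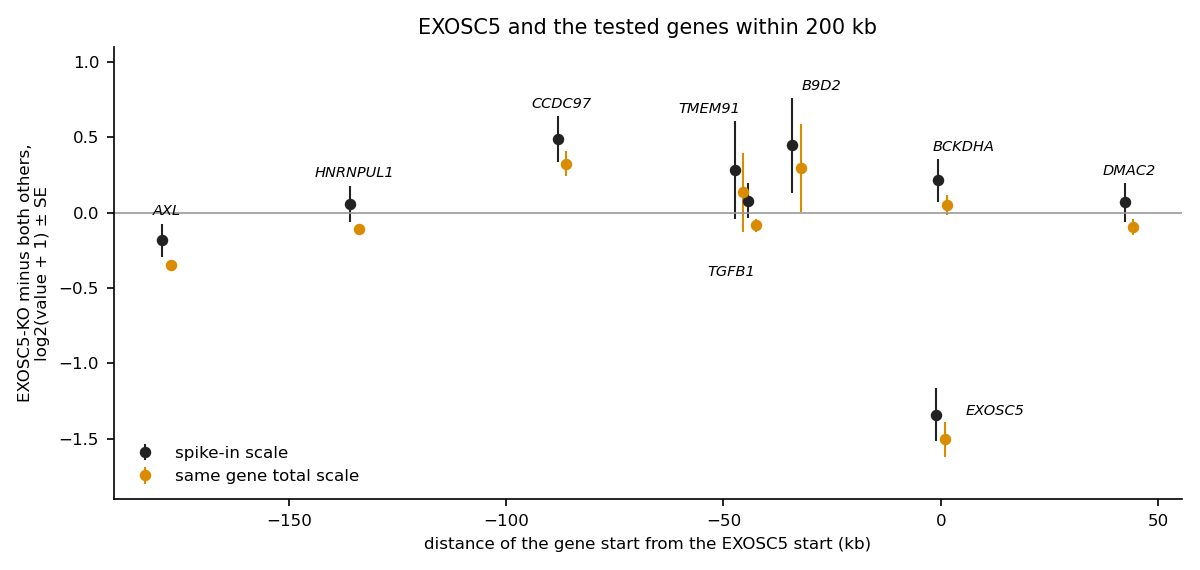
Difference in log2(value + 1) between EXOSC5-KO and both other genotypes, with its standard error, against the distance of each gene's start from that of EXOSC5 in kb, on both scales; points of 1 gene are set slightly apart. EXOSC5 lies at −1.34 on the spike-in scale and the 8 neighbours between −0.18 and 0.49.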

How the data were processed

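Poly(A)-selected RNA of 12 libraries was quantified by the authors with kallisto 0.46.1 against GRCh38, strand-aware, and summarised per gene with tximport. The signal the authors deposited is the gene count divided by their DESeq2 normalisation factors, estimated on 92 ERCC spike-ins added per counted cell. Only 37.7% to 40.8% of low values were whole multiples of 1 read (within 2%), so whole reads could not be recovered and count models were not applied. Gene IDs were matched to GENCODE 44 (19584 matched, 2795 did not).

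Values were analysed as log2(value + 1), so fold changes of low genes are understated. Genes with an untreated mean of at least 10 (13811) were fitted with limma 3.58.1 in R 4.3.3 with 6 group means over all libraries, eBayes with a trend, two-sided tests and Benjamini-Hochberg adjustment over all tested genes at 0.05. The fit was tested on simulated data. For EXOSC5, genotype labels were permuted exactly within treatment. Alternatives were 3 scalings (same gene total, median of ratios, same mitochondrial sum), pseudocounts of 0.5 and 5, an untreated mean of 50 or no filter, no trend, a replicate block, only the groups compared, and leaving out each library. Canonical GENCODE transcripts gave lengths for values per kb. Approximate depth came from the spacing of low values. Tables and figures used Python 3.11.15, pandas 2.3.3, NumPy 2.4.6 and matplotlib 3.10.9.

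The members and lists were chosen with earlier results of these data known. Named were all 10 members; the listed cofactors past the threshold in EXOSC5-KO against both other genotypes and those with the lowest and highest triptolide response in NONT; the 3 genes most like EXOSC5 and the most alike members; and, of the genes within 200 kb, the nearest on each side and any past the threshold. DIS3 was named outside this rule, for its role.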

Additional observations from a re-analysis of the deposited data

Results flagged for a closer look

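By a test of the difference itself, 1 of the 10 members differed between genotypes in its response to triptolide. It was EXOSC4, beside 0.319% of all tested genes called with a higher response. Its response was 1.69 ± 0.34 (SE) less negative on the log2 scale in EXOSC5-KO than in NONT (limma interaction term, adjusted p = 0.048). The loss was smaller in EXOSC5-KO whichever treated library was set against whichever untreated one, with 28.6 to 35.0% of EXOSC4 mRNA left against 7.29 to 12.9% in NONT. The pairings in NUP93-KO, with 17.1 to 23.4% left, also lay above those in NONT. The median tested gene also had a smaller loss in EXOSC5-KO than in NONT, by 0.57, and no rate of such separation over other genes was computed. Over 22 alternatives the difference ranged from 1.13 to 1.95 and passed in 6, with adjusted p from 0.0144 to 0.259.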

How the results depend on the processing

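The EXOSC5 decrease over both treatments kept its direction and call under every alternative run, with −1.48 to −1.20 when 1 library was left out. Without drug it passed on all 3 other scalings: against NONT at −1.11 (same gene total), −1.18 (median of ratios) and −1.46 (same mitochondrial sum), and against NUP93-KO at −1.21, −1.24 and −1.51. After triptolide, fitting only the groups compared gave −1.79 against NUP93-KO without passing (limma adjusted p = 0.0822; fewer samples). Members called lower after triptolide numbered 6 in NONT with the same gene total and by median of ratios, and 5 in EXOSC5-KO by median of ratios. Of the other 9 subunits, 1 was called against untreated NONT by median of ratios and with the same mitochondrial sum, EXOSC7, and it was lower. Against treated NONT 2 were called on each of the 3 scalings, EXOSC4 higher and EXOSC7 lower. There 3 were called with only the groups compared, and the count on the spike-in scale moved when 1 library was left out. Against treated NUP93-KO 1 was called with the same gene total and by median of ratios, EXOSC4, and it was higher. Against both other genotypes 2 were called with the same gene total and by median of ratios, EXOSC4 higher and EXOSC7 lower. With the same mitochondrial sum 3 were called, EXOSC7, EXOSC8 and EXOSC9, all lower. The spike-in difference of EXOSC4 was 0.62 to 0.75 when 1 library was left out. Members called between treated NUP93-KO and NONT numbered 0 on each of the 3 scalings, and 0 to 7 when 1 library was left out. The count for the difference in response of EXOSC5-KO and NONT was 0 on each of the 3 scalings, with a pseudocount of 5, without the filter, without the trend, with the replicate block and with only the groups compared, and 0 to 5 when 1 library was left out. For NUP93-KO and NONT that range was 0 to 7. Cofactors called against both other genotypes numbered 5 with the same mitochondrial sum and 1 to 7 when 1 library was left out, and genes beside EXOSC5 numbered 3, 3 and 4 on the 3 scalings. The untreated EXOSC5 share in EXOSC5-KO was 3.57% without division by length.

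Of values that had passed, changes of sign came only with another scaling. After triptolide in NONT, the same gene total gave 0.52 for EXOSC1, 0.65 for EXOSC5, 0.16 for EXOSC7 and 0.059 for EXOSC8, and median of ratios gave 0.84, 0.96, 0.47 and 0.37. In EXOSC5-KO the same gene total gave 0.15 for EXOSC7 and 0.033 for EXOSC8, and median of ratios gave 0.44, 0.32 and, for EXOSC5, 0.049. In NUP93-KO median of ratios gave 0.13 for EXOSC8. Between treated EXOSC5-KO and NONT, the same mitochondrial sum gave −0.15 for EXOSC1, −0.10 for EXOSC2, −0.050 for EXOSC6 and −0.26 for EXOSC10, and median of ratios −0.094 for EXOSC10. Between treated NUP93-KO and NONT, EXOSC1 was −0.025 with the same gene total and −0.044 by median of ratios. The replicate numbers share only a number: over 15 pairs of groups the deviations of same-numbered libraries correlated at −0.05 to 0.04. Of the members' calls the report gives, 2 no longer passed under the replicate block, EXOSC10 between treated EXOSC5-KO and NONT (0.57, limma adjusted p = 0.0623) and the difference in response of EXOSC4 (1.69, limma adjusted p = 0.0692). The causes of the changes given here were not tested, except where fewer samples are named. Groups of 2 libraries limit every test, and the approximately 80.3 reads behind the lowest EXOSC5 value limit its precision.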
